A study of Mus musculus with 16 samples.

Results

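The genes described here build and run the transport machinery of the primary cilium: the IFT-A and IFT-B particles, the motors that pull them, and the BBSome with its assembly and cargo factors. A list of 40 such genes was set by name and role, without use of measured values but with earlier results of these data known. A gene was kept where a probe had a detection p under 0.05 on at least 4 of 16 arrays. Of the 40, 26 were kept, and they are 26 of the 9560 genes or unnamed probes tested across the series. The question was whether any of them moved with Bicc1, which encodes an RNA-binding protein studied for its link to the polycystins and to cystic kidney disease.

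RNA came from primary calvarial osteoblasts, cells that lay down bone in the skull, released with collagenase P from C57BL6/J mouse neonates 3 to 9 days old, with sex given as mixed. Cells were plated at 150000 per well and transfected about 24 hours later with a lipid reagent, and RNA was taken 48 hours after transfection. Of the 16 Illumina bead arrays, 4 each carried RNA from cells given BICC1_1, BICC1_2 or BICC1_3, siRNAs named for Bicc1, and 4 from cells given a scrambled siRNA, SC. All 4 groups were transfected, so no untreated cells enter any comparison. Nothing in the labels tells whether the 4 arrays of a group came from different cultures or animals, and p-values therefore measure no more than array-to-array spread, possibly technical.

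A primary cilium is a single antenna-like organelle that most cells, osteoblasts among them, can raise from a basal body. IFT-B trains carry cargo outward, driven by the heterotrimeric kinesin of Kif3a, Kif3b and Kifap3, and IFT-A trains return it with a dynein that is particular to cilia. The BBSome rides on these trains and moves membrane proteins, among them receptors of the Hedgehog pathway, which acts in bone formation.

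The arrays had a median intensity of 84.8 to 111.3 and detected 11990 to 12863 probes each. Of 11 osteoblast markers with a probe, 6 were detected, namely Sp7, Alpl, Col1a1, Col1a2, Sparc and Pth1r, and the probes of Ibsp, Bglap, Bglap2, Postn and Dlx5 were not. Markers of cells with many motile cilia were mostly undetected, at 2 of 9 with a probe (Foxj1 and Rsph1), and the probes of the axonemal dynein genes Dnah5, Dnah11 and Dnaic1 were among those not detected. The summed intensity of 4 detected macrophage markers was 4455 to 8642 in BICC1_1, 3600 to 4933 in BICC1_2, 4763 to 6299 in BICC1_3 and 4329 to 4961 in SC. The sum of 3 skeletal muscle markers (Myog, Acta1 and Des) was 1948 to 2191 in BICC1_1, 1833 to 2178 in BICC1_2, 1646 to 1842 in BICC1_3 and 1298 to 1772 in SC. The part of either cell type in the results was not tested. In a bulk sample, fewer cells of a type and less RNA per cell cannot be told apart.

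BICC1_1 replicate 3, BICC1_2 replicate 3 and BICC1_3 replicate 1 stood apart from the other 13 arrays. Relative to the mean of those 13, the median of 54 ribosomal protein genes lay at -0.45, -0.10 and -0.81 log2 on these arrays in that order, and that of 39 Nduf genes of respiratory complex I at -0.59, -0.18 and -1.39. The other 13 arrays lay between -0.05 and 0.04 on both lists. The median over the 26 cilium members was 0.03, 0.01 and -0.01 on the arrays that stood apart, within the range of -0.03 to 0.04 over the others, but individual members there lay far from their usual level, as described further on. Results are given with all 16 arrays, and for many of the genes described also without these 3.

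Bicc1 itself, read by 1 probe, was lower with BICC1_1 and BICC1_2. Its normalised log2 intensity was 9.51, 9.81, 9.88 and 9.42 on the BICC1_1 arrays, 8.87, 9.04, 9.27 and 8.69 on the BICC1_2 arrays, 10.70, 10.39, 10.39 and 10.33 on the arrays labelled BICC1_3, and 10.59, 10.66, 10.59 and 10.38 on the SC arrays. Every BICC1_1 and BICC1_2 value lay below every SC value, while the BICC1_3 values overlapped those of SC. Bicc1 stood at 53.7% of its SC level with BICC1_1 (log2 difference -0.90, standard error 0.13, limma adjusted p = 0.0345) and at 33.3% with BICC1_2 (-1.59, adjusted p = 7.98e-06). With BICC1_3 the difference was -0.10 (95% interval -0.38 to 0.18, adjusted p = 0.776), so no fall of the transcript was measured in that group. The BICC1_1 call was lost in 10 of 16 fits that each left out 1 array (adjusted p of 0.0507 to 0.169 in these), while the BICC1_2 call held in all of them.

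Measured members covered each part of the machinery. Detected were 3 of 6 IFT-A genes (Ift122, Ift140 and Ift43), 6 of 10 IFT-B core genes (Ift22, Ift27, Ift52, Ift81, Ift88 and Ttc26) and 4 of 6 peripheral IFT-B genes (Ift20, Ift80, Ift172 and Cluap1). Detected too were 4 of 5 motor genes (Kif3a, Kif3b, Kifap3 and Dync2li1), 7 of 10 genes of the BBSome and its assembly (Bbs2, Bbs4, Bbs5, Bbs7, Bbs9, Ttc8 and Bbs12) and 2 of 3 membrane cargo factors (Arl3 and Tulp3). All 26 were detected on 16 of 16 arrays, as were 86.9% of the features tested, so the minimum of 4 arrays decided the entry of none of them. Probes of Wdr19, Wdr35, Ift46, Ift74, Ttc30b, Ift57, Traf3ip1 and Bbs1 were detected on no array, with mean intensities of 61.1 to 82.7, which gives no level for these genes. Ttc21b, Hspb11, Dync2h1, Bbs10, Arl6 and Arl13b were paired with no probe in the annotation used and are not analysed here.

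The promoters show one feature that the choice of genes did not use. Many ciliary genes are known targets of RFX transcription factors, which bind the X-box, a site made of 2 facing arms. In RefSeq promoter windows of GRCm38.p6, from 250 bases before to 50 bases after the gene start, the arm GTTGCC was found on either strand in 14 of the 35 listed genes that had a window, against 12.5% of all 32851 windows. It stood in 8 of the 22 detected members with a window: Ift140, Ift27, Ift88, Ttc26, Ift172, Kif3a, Bbs5 and Bbs7. The looser facing pair, GTTNCC then GGNAAC with 0 to 3 bases between, was found in 3 of 35 (Ttc26, Bbs7 and Ift57), against 0.804% of all windows. The 2 searches overlap, since the pair can hold the arm. The shares are of all windows, while the listed genes were counted by gene, and no share over detected genes was taken. Stretches of 60 bases follow for the 3 genes with the facing pair, in capitals, and for Ift140 and Kif3a, 2 members named below whose window held the arm, also in capitals. They were chosen after the search, are written 5′ to 3′ on the gene's strand, and lie at chr6:38381464-38381523 (plus) for Ttc26, chr3:36613475-36613534 (minus) for Bbs7, chr16:49699194-49699253 (plus) for Ift57, chr17:25015951-25016010 (plus) for Ift140 and chr11:53567244-53567303 (plus) for Kif3a.
Ttc26: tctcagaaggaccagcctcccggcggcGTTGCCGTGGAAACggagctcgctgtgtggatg
Bbs7: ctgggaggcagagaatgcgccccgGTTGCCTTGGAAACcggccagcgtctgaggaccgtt
Ift57: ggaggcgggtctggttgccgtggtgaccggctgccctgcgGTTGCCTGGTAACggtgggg
Ift140: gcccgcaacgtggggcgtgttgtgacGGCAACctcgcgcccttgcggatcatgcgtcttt
Kif3a: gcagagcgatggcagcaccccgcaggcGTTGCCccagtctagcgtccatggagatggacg
A match of letters is a description and not a measured binding site. Among the regulators themselves, Rfx1, Rfx2 and Foxj1 were detected, and none of the 3 passed limma's test in any siRNA group. The probes of Rfx3, Rfx4, Rfx5, Rfx7, Mcidas and Gmnc were not detected, so these regulators gave no level.

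No member passed the test, which read each gene by its brightest kept probe. Of 26 members, 0 had a limma adjusted p under 0.05 with BICC1_1, BICC1_2 or BICC1_3 against SC, where 0.0209%, 0.0523% and 0.0105% of all features tested did in the same order of siRNAs. At an unadjusted p under 0.05 there were 0 members with BICC1_1 (6.16% of all features), 0 with BICC1_2 (5.24%) and 3 with BICC1_3 (9.24%): Ift122, above SC as 4.98% of all features were, and Ift140 and Bbs2, below it as 4.26% were. Counting arrays rather than p-values gave a like result. No member had all 4 BICC1_1 values or all 4 BICC1_2 values on one side of all 4 SC values, against 6.35% and 6.6% of all features. With BICC1_3 there were 2 such members, Ift140 below SC and Kifap3 above it, against 6.59%.

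The members lay on both sides of SC. Their log2 differences had a median of 0.01 with each of BICC1_1, BICC1_2 and BICC1_3, beside medians of 0.0014, 0.0032 and -0.0064 over all features. Above SC were 17 of 26 with BICC1_1, 16 with BICC1_2 and 13 with BICC1_3, beside 50.6%, 51.4% and 48.0% of all features. With median scaling in place of quantile normalisation the counts were 19, 24 and 14, beside 64.9%, 69.1% and 48.2%. Of 8 members with several kept probes, the probes shared a sign in 5 with BICC1_1, 4 with BICC1_2 and 6 with BICC1_3. The differences ran between -0.19 (Ift88) and 0.12 (Bbs4) with BICC1_1, and between -0.36 (Ift88) and 0.12 (Kifap3) with BICC1_2. With BICC1_3 they ran between -0.36 (Ift140) and 0.24 (Ift122).

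**Figure D1:**
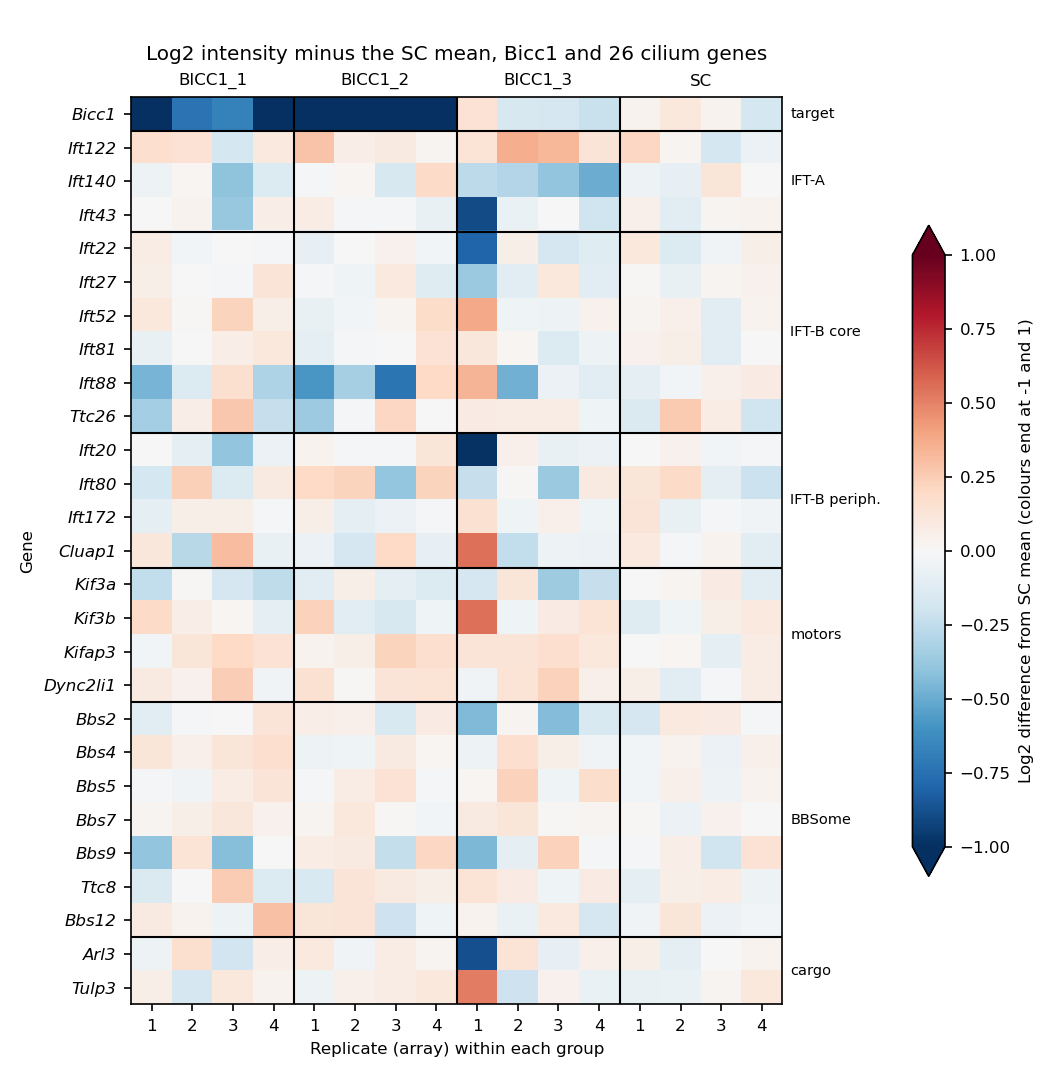
Heat map of Bicc1 and the 26 detected members (down the page, grouped by role) on the 16 arrays (across, BICC1_1, BICC1_2, BICC1_3, then SC), coloured by the log2 difference from each gene's SC mean. Bicc1 has the strongest colours with BICC1_1 and BICC1_2, and among the members BICC1_3 replicate 1 stands out, with Ift20 at 11.48 and Arl3 at 10.51.

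The intervals give a range for each difference. They rest on array-to-array spread, possibly technical, and hold for each gene alone, so they do not bound a change across cultures or animals. With BICC1_1, 25 of 26 members had a 95% interval wholly within 0.5 log2 of no difference, and Ift88 was the exception. With BICC1_2 the count was also 25, again without Ift88. With BICC1_3 it was 21, and the exceptions were Ift140, Ift43, Ift22, Ift20 and Arl3. Over all features the same limit held for 86.3%, 88.7% and 82.1%. In both groups with less Bicc1, every member's interval lay above that of Bicc1, which ended at -0.62 with BICC1_1 and at -1.31 with BICC1_2.

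**Figure D2:**
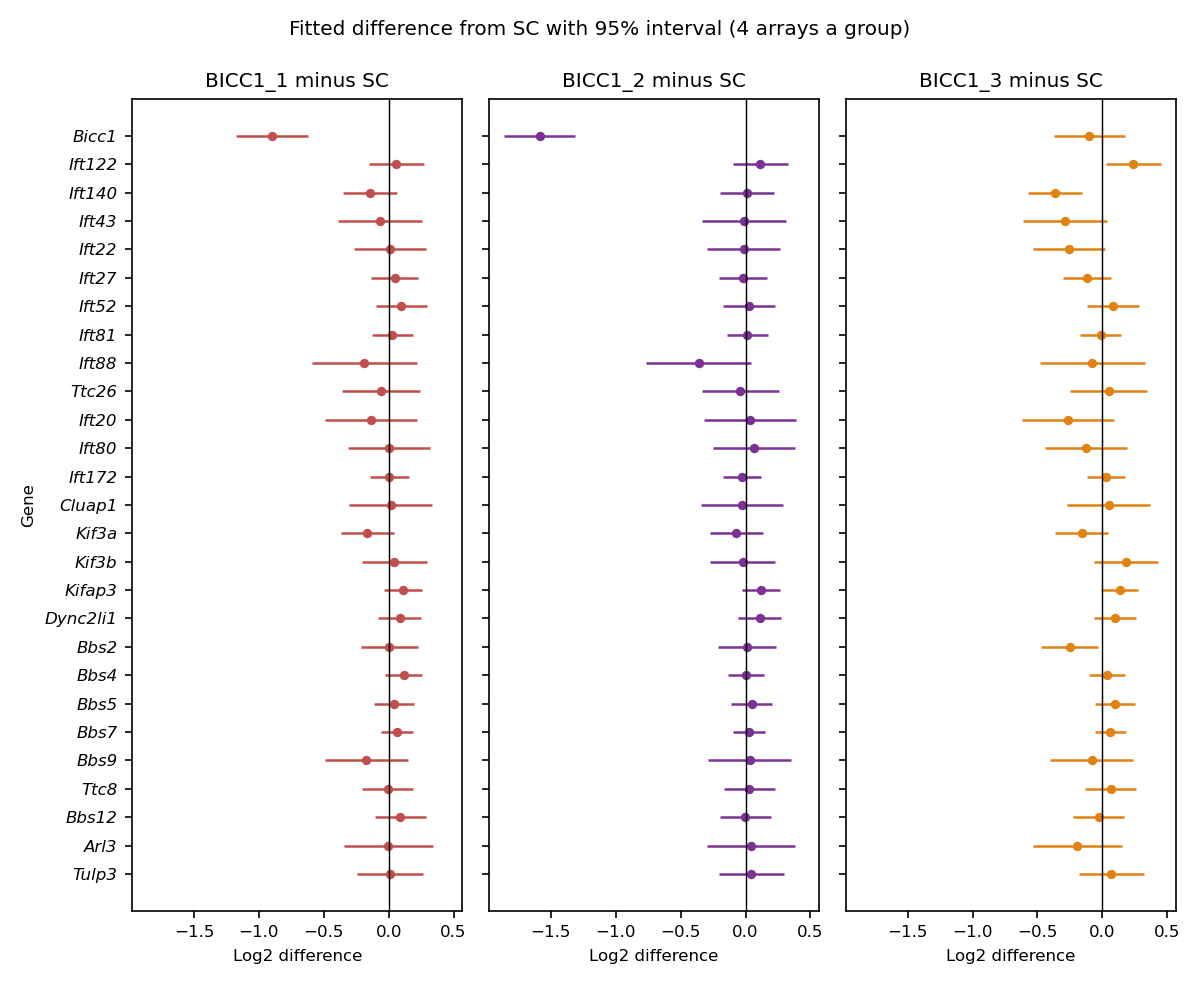
Log2 difference from SC (across, with 95% intervals from limma) for Bicc1 and the 26 detected members (down, by role) with BICC1_1, BICC1_2 and BICC1_3. Bicc1 lies at -0.90 and -1.59 with BICC1_1 and BICC1_2, and the members lie between -0.36 and 0.24 over all 3 panels.

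In the IFT-A particle, whose genes return cargo to the cell body and admit membrane proteins to the cilium, Ift140 lay lowest with BICC1_3. Ift140, a scaffold subunit of the complex, measured 7.07, 7.14, 6.71 and 6.98 with BICC1_1, 7.11, 7.14, 6.95 and 7.31 with BICC1_2, 6.85, 6.82, 6.72 and 6.62 with BICC1_3, and 7.07, 7.04, 7.24 and 7.12 in SC. All 4 BICC1_3 values lay below all 4 SC values, while the BICC1_1 and BICC1_2 values overlapped them. The log2 difference was -0.36 with BICC1_3 (95% interval -0.57 to -0.15, unadjusted p = 0.00197, limma adjusted p = 0.309), -0.14 with BICC1_1 and 0.01 with BICC1_2. With the 3 arrays apart left out, the values were -0.40, -0.05 and 0.07 in the same order, and the adjusted p with BICC1_3 was 0.0997. Ift140 thus lay lowest in the siRNA group whose Bicc1 was nearest to SC, and near SC in the group that had least Bicc1. A second Ift140 probe was detected on no array.

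Ift122, another IFT-A scaffold, lay at 7.37, 7.34, 7.02 and 7.30 with BICC1_1, 7.48, 7.26, 7.29 and 7.22 with BICC1_2, 7.33, 7.57, 7.53 and 7.33 with BICC1_3, and 7.40, 7.22, 7.03 and 7.14 in SC. All siRNA groups overlapped SC, with differences of 0.06, 0.12 and 0.24 for BICC1_1, BICC1_2 and BICC1_3 (unadjusted p = 0.0290 for BICC1_3, limma adjusted p = 0.497). Without the 3 arrays apart they were 0.14, 0.12 and 0.27. Ift122 and Ift140 thus lay on opposite sides of SC with BICC1_3. Ift43, the small subunit, differed by -0.07, -0.01 and -0.29, and its BICC1_3 mean rested on 1 array: it was 10.23 on BICC1_3 replicate 1, against 10.93 to 11.12 on the other BICC1_3 arrays and 11.02 to 11.18 in SC. Without the 3 arrays apart, its BICC1_3 difference was -0.09.

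Among the IFT-B core genes, Ift88 had the largest difference with both siRNAs that lowered Bicc1. Ift88, whose product is needed to build the cilium and whose mutation gives cystic kidneys in mice, measured 6.01, 6.33, 6.63 and 6.16 with BICC1_1, 5.89, 6.14, 5.74 and 6.67 with BICC1_2, 6.81, 5.99, 6.41 and 6.36 with BICC1_3, and 6.37, 6.44, 6.52 and 6.55 in SC. In each siRNA group at least 1 array lay above all SC arrays and others below them, so the groups overlapped. The differences were -0.19 (standard error 0.19), -0.36 (95% interval -0.76 to 0.04, unadjusted p = 0.0767, limma adjusted p = 1.00) and -0.08. Ift88 was the 1 member whose group means ran in the same order as those of Bicc1, lowest with BICC1_2, then BICC1_1, BICC1_3 and SC. That order did not hold without the 3 arrays apart, where the differences were -0.30, -0.24 and -0.22. It was also the member with the widest spread within groups, with a residual SD of 0.299 log2, against a median of 0.140 over the members.

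Ift22, a small GTPase of the IFT-B core, lay at 8.78, 8.68, 8.72 and 8.70 with BICC1_1, 8.63, 8.72, 8.75 and 8.69 with BICC1_2, 7.91, 8.77, 8.54 and 8.59 with BICC1_3, and 8.82, 8.58, 8.68 and 8.77 in SC. The BICC1_1 and BICC1_2 arrays lay within the SC range, and the BICC1_3 mean was set by replicate 1, the lowest of all 16. The differences were 0.01, -0.02 and -0.26 (unadjusted p = 0.0664, limma adjusted p = 0.559), and the last was -0.08 without the 3 arrays apart. The other 4 core genes, Ift27, the second small GTPase, Ift52 and Ift81, structural subunits, and Ttc26 (IFT56 in the newer naming), differed by -0.12 to 0.10 in the 3 siRNA groups, each read by its brightest probe. A dimmer Ift27 probe gave -0.03, -0.01 and -0.22. A dimmer Ift81 probe gave 0.06, 0.18 and 0.11 (standard error 0.07 for each), and another -0.05, 0.02 and -0.03. Without the 3 arrays apart, Ttc26 lay at -0.17, -0.12 and 0.04, against -0.06, -0.04 and 0.05 with them.

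The peripheral IFT-B genes held the brightest and the dimmest detected member. Ift20, which also serves at the Golgi in sending membrane proteins to the cilium, lay at 12.47, 12.37, 12.07 and 12.41 with BICC1_1, 12.50, 12.46, 12.46 and 12.59 with BICC1_2, 11.48, 12.52, 12.40 and 12.41 with BICC1_3, and 12.46, 12.52, 12.44 and 12.46 in SC. Apart from BICC1_1 replicate 3 and BICC1_3 replicate 1, all its values stood within 12.37 to 12.59. Its differences were -0.14, 0.03 and -0.27, and -0.05, 0.05 and -0.02 without the 3 arrays apart. With all arrays, a dimmer Ift20 probe gave -0.21, -0.03 and -0.32, and another -0.23, 0.03 and -0.35. Ift80, mutated in a human skeletal ciliopathy that narrows the chest, lay at 6.00, 6.41, 6.04 and 6.27 with BICC1_1, 6.38, 6.40, 5.79 and 6.40 with BICC1_2, 5.94, 6.19, 5.81 and 6.27 with BICC1_3, and 6.30, 6.37, 6.08 and 5.96 in SC. All groups overlapped, with differences of 0.00, 0.07 and -0.12, and of 0.05, 0.22 and -0.09 without the 3 arrays apart. Ift172 differed by 0.00, -0.03 and 0.03, while a dimmer Ift172 probe gave 0.12, 0.21 and 0.20 (standard error 0.10 for each). Another dimmer Ift172 probe gave 0.06, 0.15 and 0.05 (standard error 0.07 for each). Cluap1 (IFT38) differed by 0.02, -0.03 and 0.05, and without the 3 arrays apart by -0.08, -0.10 and -0.12, so its sign with BICC1_1 and BICC1_3 rested on those arrays.

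The motor genes lay on both sides of SC. Kif3a, a motor subunit of the outward kinesin, measured 9.87, 10.13, 9.95 and 9.87 with BICC1_1, 10.00, 10.18, 10.02 and 9.98 with BICC1_2, 9.95, 10.24, 9.76 and 9.89 with BICC1_3, and 10.13, 10.14, 10.20 and 10.01 in SC. Most siRNA arrays lay under the lowest SC array, but each group had at least 1 array among or above the SC values. The differences were -0.16, -0.07 and -0.16 (unadjusted p = 0.108, 0.462 and 0.120, limma adjusted p = 0.888, 1.00 and 0.594). A second, dimmer Kif3a probe gave -0.08, 0.05 and 0.02, so the sign for BICC1_2 and BICC1_3 depends on the probe.

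Kifap3, the accessory subunit that links the kinesin to cargo, lay above SC on average in all 3 groups when read by its brightest probe. It measured 11.003, 11.15, 11.23 and 11.17 with BICC1_1, 11.06, 11.08, 11.25 and 11.20 with BICC1_2, 11.16, 11.16, 11.19 and 11.14 with BICC1_3, and 11.03, 11.05, 10.93 and 11.10 in SC. The BICC1_3 arrays lay wholly above the SC arrays, and 3 of 4 BICC1_1 arrays did. The differences were 0.11, 0.12 and 0.13, and that of the mean of the 3 siRNAs was 0.12 (unadjusted p = 0.0447, limma adjusted p = 0.736). Kifap3 was the 1 member of 26 with an unadjusted p under 0.05 in that comparison, where 6.69% of all features had one. In that comparison 0 of 26 members passed limma's test, and 0.0105% of all features did. With all arrays and its brightest probe, Kifap3 was as high with BICC1_3, where Bicc1 was near its SC level, as with the other siRNAs. Without the 3 arrays apart, that probe gave 0.08, 0.09 and 0.13 with BICC1_1, BICC1_2 and BICC1_3. Of the 2 dimmer Kifap3 probes, with all arrays, 1 gave 0.04, 0.14 and 0.20 and the other -0.01, -0.01 and 0.16. Both were highest with BICC1_3. Whether Kifap3 followed Bicc1 was not tested.

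Dync2li1, a light intermediate chain of the return dynein, lay above SC on average at 7.89, 7.84, 8.04 and 7.76 with BICC1_1, 7.95, 7.81, 7.92 and 7.94 with BICC1_2, 7.77, 7.94, 8.03 and 7.85 with BICC1_3, and 7.85, 7.69, 7.78 and 7.87 in SC. The groups overlapped, and the differences were 0.09, 0.11 and 0.10 (unadjusted p of 0.181 to 0.287). Without the 3 arrays apart they were 0.03, 0.10 and 0.14. Kif3b, the partner motor subunit, differed by 0.04, -0.02 and 0.18, and by 0.05, 0.03 and 0.06 without them. Its highest BICC1_3 value came from replicate 1.

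Of the 7 detected BBSome and assembly genes, 5 lay above SC with BICC1_1, 6 with BICC1_2 and 4 with BICC1_3. Of all features, 50.6%, 51.4% and 48.0% did. The highest of these 7 with BICC1_2 was Bbs5, at 0.05. Bbs4, a subunit that also binds the centriolar satellite protein PCM1, measured 8.73, 8.66, 8.74 and 8.79 with BICC1_1, 8.56, 8.57, 8.70 and 8.64 with BICC1_2, 8.56, 8.79, 8.68 and 8.58 with BICC1_3, and 8.58, 8.65, 8.55 and 8.67 in SC. Of the BICC1_1 arrays 3 lay above all SC arrays and 1 just under the highest of them. The differences were 0.12 (95% interval -0.03 to 0.26, unadjusted p = 0.101, limma adjusted p = 0.884), 0.00 and 0.04.

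Bbs2, a core BBSome subunit, lay low on some BICC1_3 arrays. It lay at 6.26, 6.35, 6.36 and 6.49 with BICC1_1, 6.43, 6.41, 6.21 and 6.45 with BICC1_2, 5.92, 6.39, 5.93 and 6.21 with BICC1_3, and 6.20, 6.46, 6.44 and 6.35 in SC. Both lowest values belonged to BICC1_3 replicates 1 and 3, and the other BICC1_3 arrays lay within the SC range. The differences were 0.00, 0.01 and -0.25 (unadjusted p = 0.0286, limma adjusted p = 0.497), and the last was -0.19 without the 3 arrays apart (unadjusted p = 0.0847). Bbs5, Bbs7, Ttc8 (BBS8) and Bbs12, a chaperonin-like assembly factor, differed by -0.03 to 0.10. A dimmer Ttc8 probe gave -0.04, 0.18 and 0.03. Bbs9 differed by -0.17, 0.03 and -0.08, and by -0.09, 0.12 and 0.04 without the 3 arrays apart. Bbs7 had the narrowest spread of all members, with a residual SD of 0.0470 log2 and values of 9.12 to 9.30 over the 16 arrays.

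Of the membrane cargo factors, Arl3, the GTPase that releases lipid-anchored proteins inside the cilium, differed by -0.00, 0.04 and -0.19. The last again rested on BICC1_3 replicate 1 (10.51, against 11.30 to 11.53 on the other BICC1_3 arrays and 11.29 to 11.45 in SC) and was 0.04 without the 3 arrays apart. Tulp3, which links membrane receptors to IFT-A, differed by 0.01, 0.05 and 0.07, and by -0.02, 0.03 and -0.08 without the 3 arrays apart.

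**Figure D3:**
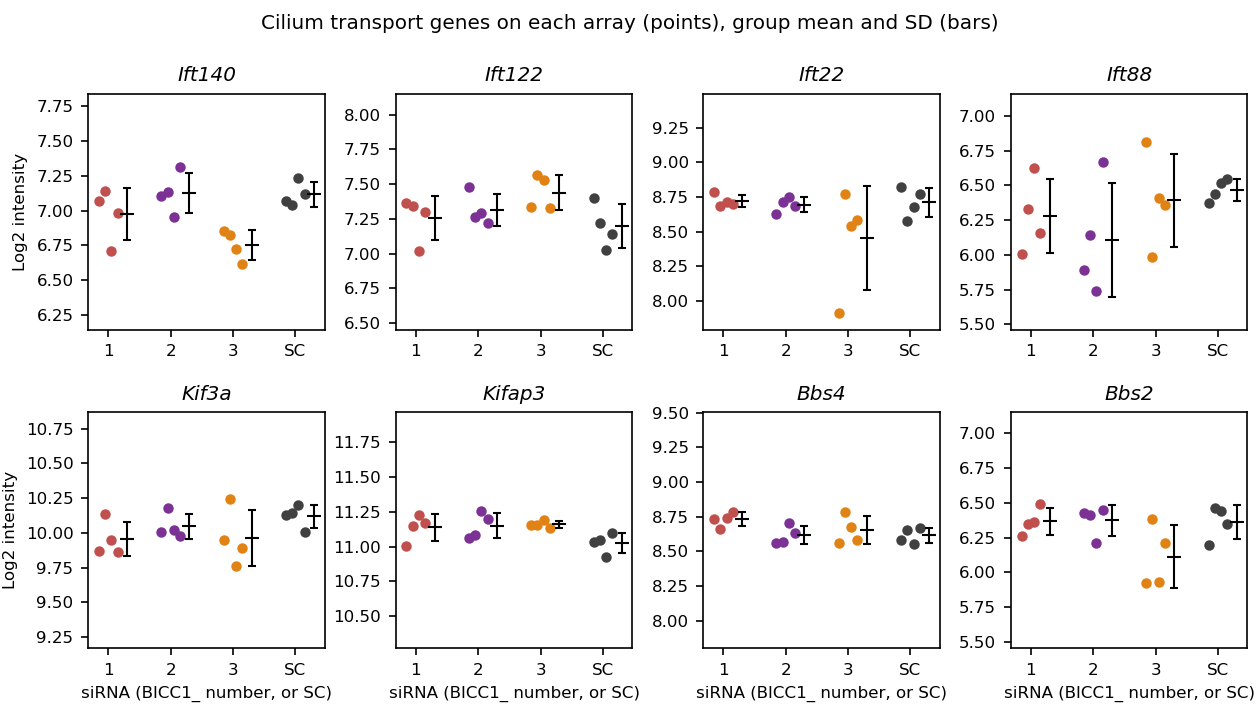
Log2 intensity of Ift140, Ift122, Ift22, Ift88, Kif3a, Kifap3, Bbs4 and Bbs2 on each array (points) with group mean and SD (bars, n = 4), for BICC1_1, BICC1_2, BICC1_3 and SC from left to right. The BICC1_1 and BICC1_2 points overlap those of SC in all 8 panels, and the BICC1_3 points lie wholly below SC for Ift140 (6.62 to 6.85) and wholly above it for Kifap3 (11.14 to 11.19).

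Signs over several siRNAs were set against all features. Members below SC with both BICC1_1 and BICC1_2, as Bicc1 was, numbered 4 of 26 (Ift43, Ift88, Ttc26 and Kif3a), beside 32.4% of all features. Members above SC with both numbered 11, beside 34.5%. The comparisons share the SC arrays, so a like sign in 2 of them is partly set by those arrays. No member had all its BICC1_1 and BICC1_2 values on the same side of the SC values, as 1.17% of all features had, and 0.356% had all values of the 3 siRNA groups there.

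Differences between siRNAs do not use the SC means, though the SC arrays enter the estimate of spread that all comparisons share. Against BICC1_3, Bicc1 was lower with BICC1_1 (-0.80, limma adjusted p = 0.0276) and with BICC1_2 (-1.49). Of the members 0 of 26 passed limma's test in either comparison, where 0.0732% and 0.115% of all features did. At an unadjusted p under 0.05 there were 2 in each, Ift140 and Bbs2, beside 6.09% and 8.28% of all features. Ift140 was higher with BICC1_2 than with BICC1_3 on all arrays, by 0.37 (unadjusted p = 0.00155, limma adjusted p = 0.297), and it was the 1 member whose groups did not overlap there, beside 3.84% of all features. With BICC1_1 it was 0.22 above BICC1_3 (unadjusted p = 0.0388), and 0 members separated those groups, beside 2.79% of all features. Between BICC1_2 and BICC1_1, 0 of 26 members passed limma's test (0.282% of all features did), 0 had an unadjusted p under 0.05 (6.38%), and 0 had groups that did not overlap (4.56%). With the replicate number as a block over these 8 arrays, 0 of 26 members and 12 of all features passed, against 27 features without it.

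**Figure D4:**
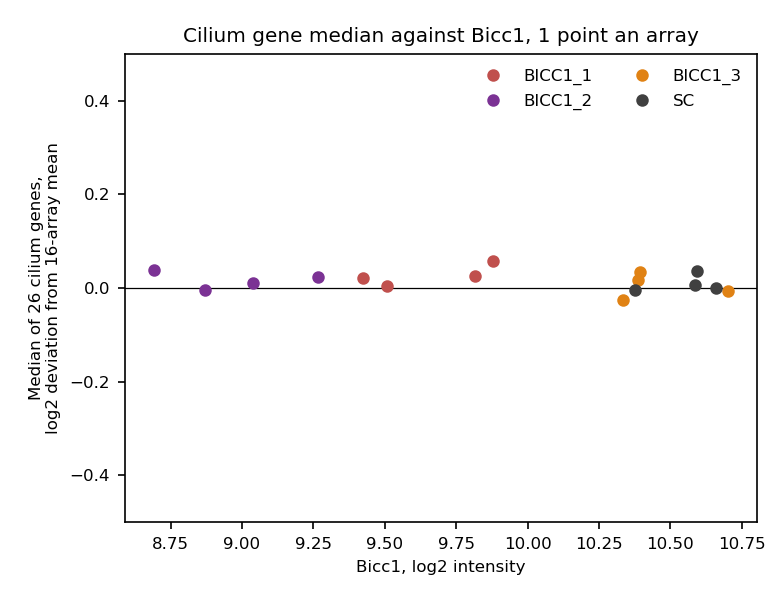
Median over the 26 members of the log2 deviation from each gene's 16-array mean (up) against the log2 intensity of Bicc1 (across), 1 point an array, coloured by group. The medians span -0.03 to 0.06 while Bicc1 spans 8.69 to 10.70, and no correlation is given because the Bicc1 values fall into separate clusters.

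The arrays that stood apart moved single members in both directions. On BICC1_3 replicate 1, 7 members lay below and 7 above the range of the 13 arrays that did not stand apart, beside 27.7% and 28.3% of all features. Farthest below the mean of those 13 were Ift20 (-0.98), Arl3 (-0.91), Ift43 (-0.88) and Ift22 (-0.78), and farthest above were Cluap1 (0.62), Tulp3 (0.53), Kif3b (0.52) and Ift88 (0.52). On BICC1_1 replicate 3, 5 members lay below and 7 above, beside 22.3% and 22.1%, among them Ift20 (-0.39), Ift43 (-0.36) and Arl3 (-0.22) below and Cluap1 (0.37) and Tulp3 (0.12) above. Ift20, Ift43 and Arl3, like Cluap1 and Tulp3, thus lay outside the range on the same side on both arrays, which belong to different siRNAs. Without these 3 arrays, 0 of 26 members passed limma's test in any comparison, and 0, 0 and 3 had an unadjusted p under 0.05 with BICC1_1, BICC1_2 and BICC1_3, beside 10.96%, 8.70% and 11.6% of all features.

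Related gene lists showed no member past the test either. Against SC, limma called 0 of 8 further detected IFT, dynein and BBSome genes, 0 of 14 genes of the transition zone and inversin compartment, 0 of 15 of the basal body, 0 of 4 carriers of lipidated cargo and 0 of 6 Hedgehog genes, for any siRNA. Of all features, 0.0209%, 0.0523% and 0.0105% were called with BICC1_1, BICC1_2 and BICC1_3. At an unadjusted p under 0.05, BICC1_1 had 1 transition zone gene above SC and 1 Hedgehog gene below it, BICC1_2 had 1 transition zone gene above SC, and BICC1_3 had none. The shares of all features at that p were 6.16%, 5.24% and 9.24%. The transition zone gene was Nphp4, a scaffold of the gate at the cilium base, at 0.20 and 0.16 with BICC1_1 and BICC1_2 and 0.06 with BICC1_3 (unadjusted p = 0.0197, 0.0478 and 0.437, limma adjusted p = 0.678, 0.941 and 0.767). The Hedgehog gene was Sufu, a negative regulator of the Gli factors, at -0.24, -0.10 and -0.11 (unadjusted p = 0.0158 with BICC1_1, limma adjusted p = 0.649). Without the 3 arrays apart, further genes of these lists had an unadjusted limma p under 0.05. Among them were Tctn2 with BICC1_1 (0.0193), Ahi1 with BICC1_2 (0.00973) and Rpgrip1l with BICC1_3 (0.0356). Their limma adjusted p was 0.351, 0.364 and 0.406. Also under 0.05 unadjusted without the 3 arrays apart were Cep97 with BICC1_1 and BICC1_2 and Fbf1 with BICC1_1, both basal body genes. With all arrays Cep97 lay at 0.14, 0.16 and -0.29, and Fbf1 at 0.08, 0.01 and -0.01. Without the 3 arrays apart Cep97 lay at 0.28, 0.24 and -0.06, and Fbf1 at 0.23, 0.10 and 0.09. Neither passed limma's test against SC. Whether Cep97 followed Bicc1 was not tested. The shares of all features under 0.05 unadjusted were 10.96%, 8.70% and 11.6% without the 3 arrays apart. Mkks, a chaperonin-like BBSome assembly gene, lay at -0.10, -0.06 and -0.40, but at -0.03, -0.03 and -0.12 without the 3 arrays apart, and Tctn2 of the transition zone at 0.13, 0.07 and 0.11. Gli1 and Gli3 had probes that were not detected, so the pathway's best known target, Gli1, gave no level here. Ptch1 and Hhip, targets that were detected, did not pass the test.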

How the data were processed

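Linear probe intensities were deposited without normalisation, per the file headers, and the submitters' processing notes name GenomeStudio. With each intensity the authors deposited a fraction that the header calls a p-value. It is near 1 for bright probes, and 1 minus this fraction served as the detection p. A deposited table of log2 values, whose transform is not given in the sources used here, served as an alternative. The neqc function (limma 3.58.1, R 4.3.3) corrected background, added an offset of 16, quantile-normalised and took log2. Probes with a detection p under 0.05 on at least 4 arrays were kept, 12802 of 25697, and the brightest kept probe stood for a gene, which left 9560 features (8832 with a symbol, 728 without). The platform annotation named the probes. 1 limma fit over all 4 groups gave each comparison (lmFit, then eBayes; degrees of freedom 12 residual and 3.962 prior). The adjusted p is Benjamini-Hochberg over all 9560, with a threshold of 0.05. The fit was tested on simulated data with independent noise for each gene and array. Those data held no array-wide deviation like that of the arrays that stood apart. The test therefore gives no measure of how often small member changes would be called here. The number of arrays limits the precision: the median standard error was 0.108 log2 for 1 siRNA against SC and 0.0990 for the members, after median intensities of 84.8 to 111.3. Named with values on every array were Bicc1, the 4 members of smallest unadjusted p in each siRNA against SC, Ift88, Kif3a and Bbs4, and the brightest and dimmest detected members. Ift43, Arl3 and Nphp4 were given further values because of arrays or counts seen later. Members and lists were chosen with earlier results of these data known. Alternatives covered background, scaling, probe choice, filter, separate fits, array weights, the replicate block and each array left out. Same-numbered BICC1_1 and BICC1_2 arrays deviated together in all 4 pairs (correlations 0.182 to 0.609), including a pair of arrays that both stood apart. Some differently numbered pairs of these groups did so as well. BICC1_1 replicate 2 correlated at 0.296 with BICC1_2 replicate 1, and at 0.257 with BICC1_2 replicate 2. The numbers were therefore not shown to pair any groups, and blocks on them served only as alternatives.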

Additional observations from a re-analysis of the deposited data

Results flagged for a closer look

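In groups of 4 arrays, a gene was looked at again where its highest or lowest array lay far from the other 3 for the group's whole range. Of 112 groups (Bicc1, the 26 members and the members' median, in 4 groups each) 6 met this, and chance alone gives about 1 in 20. Bicc1 was 10.70 on BICC1_3 replicate 1, above 10.33 to 10.39 on the other BICC1_3 arrays. Ift20 was 11.48 on that same array, below 12.40 to 12.52. Ift43 was 10.75 on BICC1_1 replicate 3, below 11.12 to 11.19. Ift80 was 5.79 on BICC1_2 replicate 3, below 6.38 to 6.40, and Bbs2 was 6.21 on that array, below 6.41 to 6.45. These 3 arrays are those that stood apart on ribosomal and Nduf genes. Ttc26 was 6.64 on BICC1_3 replicate 4, below 6.76 to 6.77.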

How the results depend on the processing

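Over 27 alternatives, of which 16 left out 1 array each, 0 of 26 members passed limma's test in any of the 7 comparisons. The smallest adjusted p of a member was 0.0593 for BICC1_3 against SC (Ift140, with array weights) and 0.0564 for BICC1_2 against BICC1_3 (without the 3 arrays apart). Features called among all those tested varied far more, at 0 to 30 for BICC1_1, 2 to 60 for BICC1_2, 0 to 14 for BICC1_3 and 0 to 26 for the mean of the 3 siRNAs against SC, beside 2, 5, 1 and 1 in the reported fits. They were 0 to 10 for BICC1_1 and 2 to 19 for BICC1_2 against BICC1_3, and 2 to 71 for BICC1_2 against BICC1_1, beside 7, 11 and 27. Bicc1 with BICC1_1 lost its call under median scaling (-0.85, adjusted p = 0.224), in separate fits of the groups (-0.90, adjusted p = 0.145) and in 10 of 16 fits without 1 array, over which it lay at -0.97 to -0.82. Median scaling moved the members' median difference to 0.0616 (BICC1_1 against SC), 0.0689 (BICC1_2 against SC), 0.0448 (mean of the siRNAs against SC), 0.0688 (BICC1_1 against BICC1_3) and 0.0356 (BICC1_2 against BICC1_3). It moved the median of all features to 0.0444, 0.0513 and 0.0285 in the first 3 of these. The median for BICC1_3 against SC was -0.0293 with array weights and -0.0205 without the 3 arrays apart. Leaving out 1 array gave medians of 0.0092 to 0.0367 (BICC1_1 against SC), -0.0205 to 0.0361 (BICC1_3 against SC), -0.0198 to 0.0239 (BICC1_1 against BICC1_3) and -0.0154 to 0.0127 (BICC1_2 against BICC1_1). Differences near 0 changed sign. Bbs4 with BICC1_2 was -0.0254 with array weights, -0.0264 without the 3 arrays apart and -0.0264 to 0.0200 without 1 array (-0.0264, -0.00443, -0.00862 and -0.0185 where it turned). Without 1 array, Ift88 with BICC1_3 lay at -0.216 to 0.0589 and Bbs4 at -0.00774 to 0.0671, both turning without BICC1_3 replicate 2. The cause of these changes was not tested.

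Over 24 same-number pairs the correlation of deviations ran between -0.594 and 0.609 with a median of -0.0251. It passed 0.1 in all 4 pairs of BICC1_1 with BICC1_2 (0.182 to 0.609), and in 0 to 2 of 4 pairs of every other pair of groups. Over 72 pairs of unlike number the median was 0.0241, and 22 of them passed 0.1. With the replicate number as a block, 0 members were called in every comparison, the median member difference with BICC1_1 was 0.0098, and no call of Bicc1 changed (adjusted p = 0.0142 with BICC1_1). A block over the BICC1_1 and BICC1_2 arrays alone, chosen after seeing the data, gave a median of 0.0091. Arrays measure levels only where a probe stands above background, so 8 members gave no level, and 4 arrays a group limit what small shifts could be seen.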

Other observations

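Further genes around the cilium, counted in the related lists but not yet given by value, were measured too. Cep89, a distal appendage gene of the basal body, lay at -0.13, -0.14 and -0.27 log2 from SC with BICC1_1, BICC1_2 and BICC1_3, and Rab3ip, an exchange factor for Rab8, at 0.05, 0.11 and 0.10. Unc119b, a carrier of myristoylated cargo, lay at 0.09, 0.06 and 0.13, and Inpp5e, the ciliary phosphoinositide phosphatase, at 0.00, 0.08 and 0.06. Evc, of the Ellis-van Creveld complex at the cilium base, lay at -0.01, -0.15 and -0.09. Dynlrb1, a light chain shared by cytoplasmic and ciliary dynein, lay at -0.14, 0.01 and -0.28. The regulator Rfx1 lay at -0.13, -0.10 and -0.09. Without the 3 arrays that stood apart, Cep89 lay at -0.04, -0.00 and -0.18, Dynlrb1 at -0.09, 0.04 and -0.05, Unc119b at 0.03, 0.03 and 0.01, and Rfx1 at -0.02, -0.04 and -0.16. None of these passed limma's test, and the smallest unadjusted p among them with all arrays was 0.0942 (Dynlrb1 with BICC1_3).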
